A study of Drosophila melanogaster with 6 samples.

Results

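The ecdysteroid kinase-like gene cluster of *Drosophila melanogaster* is a row of 10 neighbouring genes on chromosome arm 3R. They are CG11889, CG11891, CG11878, CG10513, CG10514, CG11892, CG31300, CG31104, CG13658 and CG11893, and all 10 were found by name among the 14862 genes of the authors' deposited table. The members were chosen by their place on the chromosome together with their deposited fold changes and adjusted p-values, so those values are given as a description and not as a test of the cluster.

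The study compared stage 14 oocytes, which are mature and ready to be laid, that expressed InR-DN with stage 14 oocytes that expressed GFP as the control. InR is the insulin receptor of the fly, and InR-DN served to suppress insulin signalling, per the submitters. Each group had 3 samples, each a pool of 200 oocytes from flies kept on standard food with yeast paste. The labels do not name the driver that expressed InR-DN or GFP, nor whether the pools of a group had different parents, so the deposited p-values rest on a spread between pools that may be technical. The title of the authors' deposited table speaks of embryos, and the labels of the InR-DN samples also use the word progeny, so it is not settled that the table covers these oocyte samples. That table compares 2 groups, gives no values or depths per sample and leaves unstated which group was divided by which. Fold changes are therefore described by their sign as deposited and are assigned to neither InR-DN nor GFP oocytes.

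Ecdysteroids are the steroid hormones of insects, with ecdysone as the best known. The family is named after an enzyme of the silkworm *Bombyx mori* that adds phosphate to ecdysteroids and so turns them into an inactive form that is stored in the egg. Its members carry a fold related to choline kinases, which act on small molecules rather than on proteins. In *Drosophila melanogaster* the family has been linked to the detoxification of foreign compounds by phosphorylation, and the substrates of most of its members are not known.

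A likelihood ratio above 0, which marks what is called a tested gene below, was listed for 13080 genes. A gene is called when the authors' adjusted p was under 0.05, which held for 667 tested genes, or 5.10%. Negative calls made up 2.48% and positive calls 2.61% of the tested genes. The receptor gene InR itself was at a log2 fold change of 0.25 (adjusted p = 1), per the authors' deposited table. The 8 germline markers examined (vas, nos, osk, bcd, grk, orb, piwi and aub) had average log2 CPM from 3.11 to 9.76 in the authors' deposited table, and 0 of them were called or had an unadjusted p under 0.05. CPM is the read count scaled to library size, and which libraries enter the average is not stated. An implied SE is the size of the log2 fold change divided by the square root of the likelihood ratio, and 95% intervals are taken from it by the normal approximation. It describes the precision of the authors' fit, since no spread between samples could be measured. Where one group holds few reads or none, which the table does not show, a fitted fold change is no bound and its implied SE no measure of precision.

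By the gene order that RefSeq gives for the Release 6 plus ISO1 MT assembly, the 10 genes follow one another with 0 other genes between them. They open an unbroken run of 28 genes of the family, in which 2 pseudogenes precede them and 16 genes follow. The gene table gives each gene a clade name made of a clade and a place within it. CG11889, CG11891 and CG11878 belong to clade Dro1 and are named Dro1-3, Dro1-4 and Dro1-5. CG10513, CG10514 and CG11892 each stand for a clade of their own, as Dro2-0, Dro3-0 and Dro4-0. CG31300, CG31104, CG13658 and CG11893 belong to clade Dro5. CG10513 and CG10514 are annotated on the minus strand and the other 8 on the plus strand. Coding lengths in Ensembl's annotation of BDGP6 were alike, from 1239 bases in CG10514 to 1317 in CG11892, while the 3 genes CG31300, CG31104 and CG13658 had 3 exons and CG11893, of the same clade, had 2.

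Of the 10 genes, 7 were called with a negative fold change, 1 was called with a positive one and 2 were not called. The members are thus called in 80% of cases, against 5.10% of all tested genes, but that share follows from how they were picked. The first 6 genes in chromosome order were all negative and all called. In the clade Dro5 genes that follow, the signs were mixed, with 1 negative call, 1 positive call and 2 genes without a call. The median log2 fold change of the 10 genes was -1.44, against 0.03 over all tested genes.

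**Figure D1:**
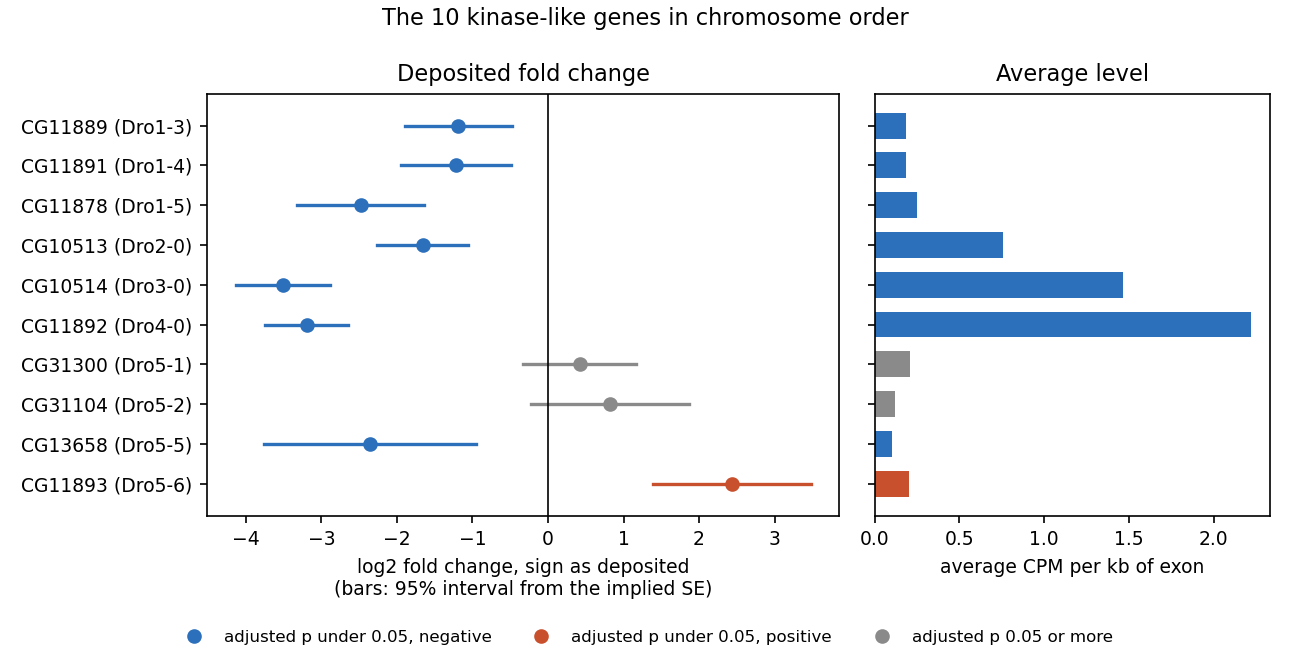
The 10 genes of the cluster in chromosome order, with their clade names. Left, log2 fold change with the sign as deposited (points) and 95% interval from the implied SE (lines); right, average CPM per kb of exon (bars); colours show the call at adjusted p under 0.05. The first 6 genes lie between -1.19 and -3.51, and CG11893 at 2.44 is the positive call.

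CG10514 and CG11892 carried the largest fold changes and the highest averages of the cluster. CG10514 stood at a log2 fold change of -3.51 per the authors' deposited table (implied SE 0.32, 95% interval -4.13 to -2.89, adjusted p = 5.0e-26), which is an 11.4-fold difference. CG11892 was at -3.19 per the authors' deposited table (implied SE 0.28, interval -3.74 to -2.65, adjusted p = 1.0e-27), a 9.16-fold difference. By p-value CG11892 ranked at place 40 and CG10514 at place 43 among the 14862 genes of the authors' deposited table. These neighbours lie on opposite strands and in different clades, and their intervals overlapped.

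CG10513, next to CG10514 on the same strand, had a smaller log2 fold change of -1.66 per the authors' deposited table (implied SE 0.31, interval -2.26 to -1.05, adjusted p = 4.7e-06). Its interval did not overlap that of CG10514, and the fold changes of these neighbours differed by 1.85 on the log2 scale. CG11878, the last of the clade Dro1 genes, was at -2.48 per the authors' deposited table (implied SE 0.43, interval -3.32 to -1.64, adjusted p = 5.8e-07). Both were thus on the same negative side as CG10514 and CG11892.

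The other clade Dro1 genes, CG11889 and CG11891, cannot be taken as separate results. The authors' deposited table puts CG11889 at a log2 fold change of -1.19 (adjusted p = 0.026) and CG11891 at -1.21 (adjusted p = 0.027). Per the authors' deposited table, CG11889 averaged -0.87 and CG11891 -0.88 log2 CPM. The differences between them were 0.025 in log2 fold change and 0.0068 in average log2 CPM. In the Ensembl annotation both genes cover the same 2944 exonic bases, so that 100% of the exonic bases of either lie in exons of the other. Their coding parts share 0 bases, and the long annotated transcript of either gene spans both coding parts. Under this annotation, which may not be the one the authors used, reads from the shared exons cannot be assigned to one of them by position, and which rule the authors' counter used is not given in the sources used here. With the pair counted as 1 locus, 7 loci of the cluster were called, 6 of them negative and 1 positive. Over all tested genes 5.10% were called, and the count of loci again follows from how the members were picked.

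Apart from this pair, 0 of the 44 other pairs of members shared an exonic base, and 0 of them were as close to each other in both fold change and average. Among the 8 neighbouring pairs that shared no exonic base, fold changes differed by 0.32 to 4.79 and average log2 CPM by 0.31 to 3.53. The intervals of 4 of these 8 neighbouring pairs did not overlap. Whether reads of one member also align to another because their sequences are alike was not tested, as it would take the sequences themselves. The counting method and its treatment of reads that fit several genes could not be taken from the labels either.

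The clade Dro5 genes at the far end of the cluster gave the positive call and both genes without a call. CG11893 stood at a log2 fold change of 2.44 per the authors' deposited table (implied SE 0.53, interval 1.40 to 3.48, adjusted p = 0.00022), a 5.41-fold difference with the sign opposite to that of the 7 negative calls. Its neighbour CG13658 was at -2.36 per the authors' deposited table (implied SE 0.72, interval -3.76 to -0.95, adjusted p = 0.026). The 4.79 between these neighbours of one clade was the widest gap between neighbouring members. CG31104 was at 0.82 per the authors' deposited table (implied SE 0.53, interval -0.22 to 1.86, adjusted p = 0.80) and CG31300 at 0.42 (implied SE 0.38, interval -0.33 to 1.17, adjusted p = 0.95). The intervals reach 1.86 for CG31104 and 1.17 for CG31300 on the positive side, and at their low averages they may not bound the change. Neither gene is thus shown to be unchanged.

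At these low averages many genes of the authors' deposited table share a few repeated fold changes, as the level bands in the plot of fold change against average show. The value of CG11893 lies at such a repeated fold change, with 139 other tested genes of any average within 0.05 of its log2 fold change. The median likelihood ratio of those 139 genes was 2.26 in the authors' deposited table, while CG11893 had 21.0. CG13658 had 14 other tested genes within 0.05 and a likelihood ratio of 10.9, against a median of 12.8 among them, from the authors' deposited table. The 139 and the 14 genes were not matched to these members in average. Their likelihood ratios thus do not show how either member compares with genes at its own level.

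**Figure D2:**
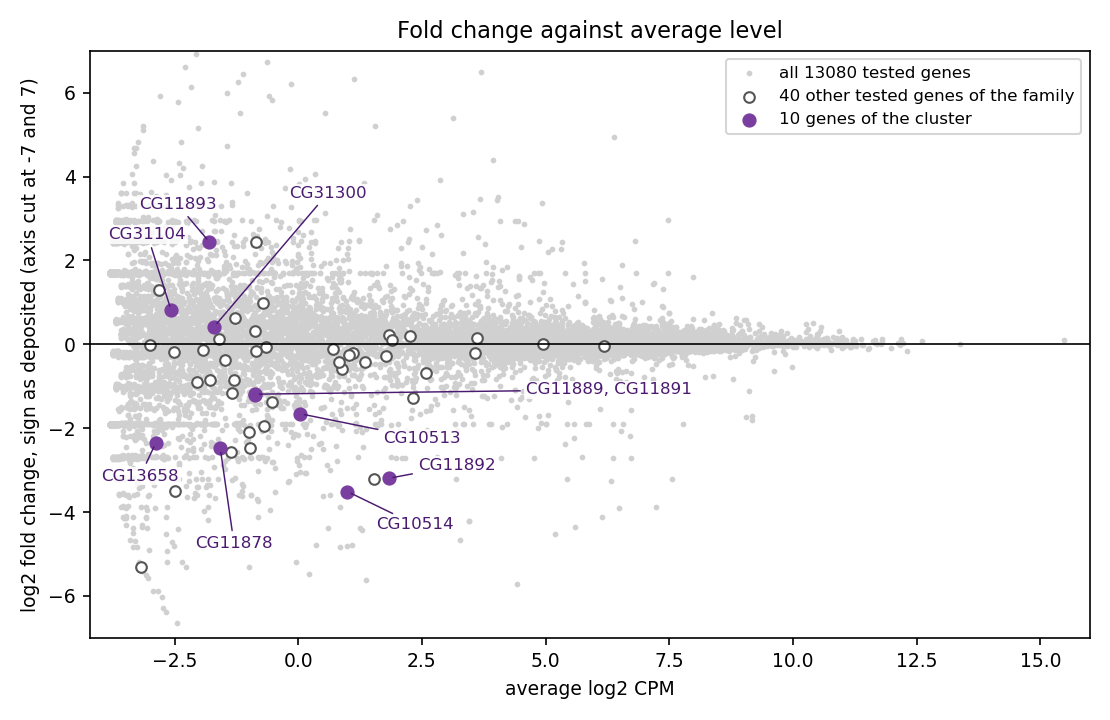
Log2 fold change, with the sign as deposited, against average log2 CPM for the 13080 tested genes (grey), the 40 other tested genes of the family (open circles) and the 10 genes of the cluster (filled). All 10 sit at averages of 1.83 or lower, with CG10514 at -3.51 and CG11892 at -3.19 as the lowest of the cluster.

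All members had low averages, and 7 of the 10 were below 1 CPM. Across the cluster the average ran from 0.136 CPM for CG13658 to 3.57 CPM for CG11892 in the authors' deposited table. The median of the 10 genes was 0.440 CPM, against 14.0 CPM over all tested genes, and 41.7% of tested genes had an average below that of CG11892. In the average range of the members, 12.0% of the 3597 tested genes were called, with 6.45% negative and 5.56% positive. Over all tested genes 5.10% were called, so calls were more frequent in that range. Stricter rules kept fewer members. At an adjusted p under 0.01, 5 members were called, against 3.75% of tested genes, and with Bonferroni adjustment 4 members, against 2.25%. Among genes of average log2 CPM 0 or more, to which only CG10513, CG10514 and CG11892 belong, all 3 were called, against 3.98% of such genes. With the adjustment made over the tested genes alone the 8 calls stood, against 5.27%.

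Per kb of exon in the Ensembl annotation, the average levels were highest in the middle of the cluster. CG11892 had the highest average, at 2.22 CPM per kb, CG10514 had 1.47 and CG10513 had 0.758 CPM per kb. The other 7 genes lay between 0.102 CPM per kb in CG13658 and 0.249 in CG11878, with CG31104 at 0.122, CG11891 and CG11889 at 0.185 and 0.186, CG11893 at 0.204 and CG31300 at 0.209 CPM per kb. The highest average per kb was 21.8 times the lowest. No spread over samples can be given for these averages, so it is not known which neighbours in this order differ beyond it, and the values of CG11889 and CG11891 rest on shared exons.

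The genes that flank the cluster were taken from the same gene order. Of the 5 annotated genes before it, the authors' deposited table lists 3, of which 0 were called and 0 had an unadjusted p under 0.05, their log2 fold changes lying between -0.01 and 0.33. The nearest protein-coding gene on that side, RIOK2, which encodes a kinase of ribosome assembly, was at 0.14 per the authors' deposited table (implied SE 0.21) with an average of 67.9 CPM. The 5 genes after it are all of the family and all had negative fold changes, from -0.21 to -3.49. Of these 5, 2 were called, against 5.10% of all tested genes and 12.0% in the average range of the members. CG31098, which adjoins CG11893 on the opposite strand without sharing an exonic base with it, was at -0.21 per the authors' deposited table (implied SE 0.21, adjusted p = 1) with 11.9 CPM on average.

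Beyond the cluster the same run goes on with 16 family genes, of which 15 were tested. Of these, 5, or 33.3%, carried a call, each of them negative. Negative calls made up 2.48% of all tested genes and 6.45% of those in the average range of the members. The median log2 fold change of the 15 was -0.84. The called genes were CG31097 at -3.49, CG31288 at -1.37, CG10550 at -1.28, CG10553 at -1.95 and CG10560 at -2.56 per the authors' deposited table, and their adjusted p ran from 1.6e-05 to 0.021. CG10553 and CG10560 share clade Dro17. CG31099, the gene that was not tested, was listed at 0 for both fold change and likelihood ratio. The last genes of the run, CHKov1 and CHKov2, known for variants tied to resistance against a fly virus, had log2 fold changes of 0.10 and -0.12 and an adjusted p of 1 each, per the authors' deposited table.

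**Figure D3:**
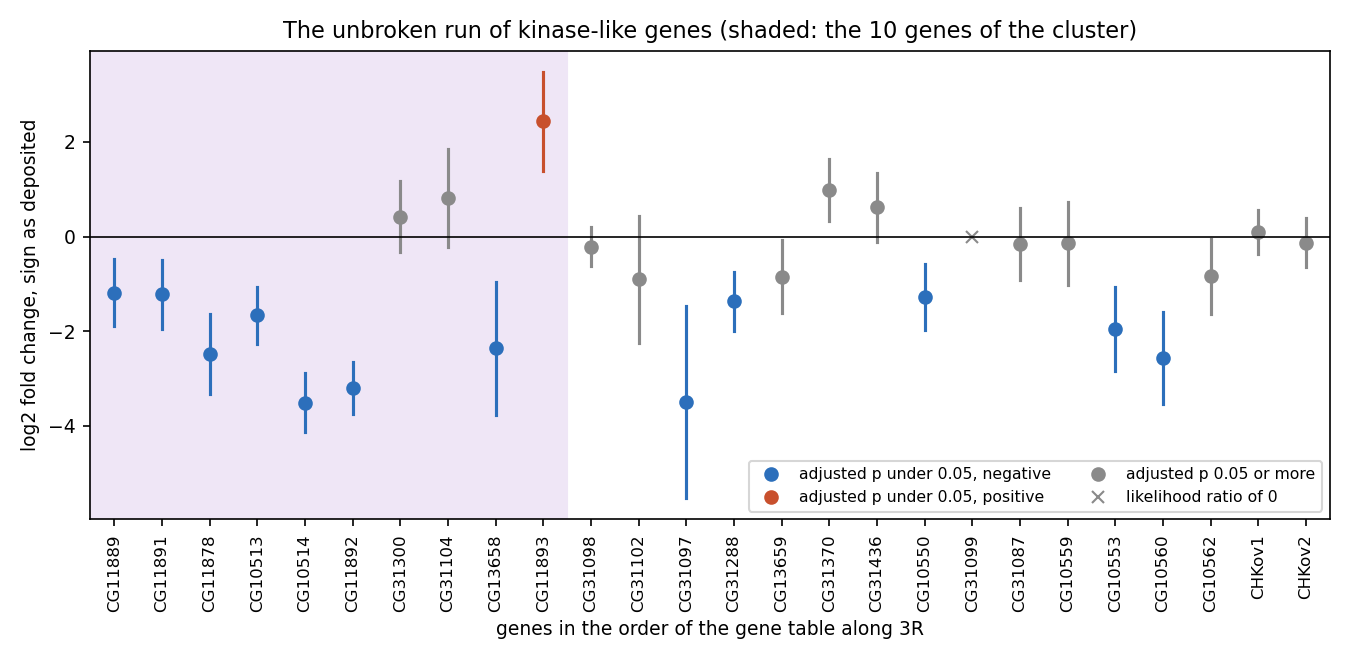
Log2 fold change with the sign as deposited for the 26 genes of the unbroken run that are in the authors' deposited table, in the order of the gene table along 3R. Points give the fold change, lines the 95% interval from the implied SE, and the shaded area the 10 genes of the cluster. Negative calls also occur among the 16 genes after the cluster, while CG11893 gave the positive call of the run.

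Clade Dro5 continues in the run with CG13659, CG31370 and CG31436, so 7 of its genes were tested, 5 with positive and 2 with negative fold changes. CG13659, which has been linked to caffeine tolerance in *Drosophila melanogaster*, was at -0.85 in the authors' deposited table (adjusted p = 0.37), CG31370 at 0.99 (adjusted p = 0.064) and CG31436 at 0.62 (adjusted p = 0.68). These 3 genes had no call, and the median of the 7 was 0.62. In the 3 clade Dro1 genes all fold changes were negative, and 2 of those rest on shared exons.

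Over the whole genome the gene table gives clade names to 54 genes, 3 of them pseudogenes, and 51 are in the authors' deposited table. Outside the cluster 40 of 41 were tested, and 9 of the 40, or 22.5%, were called, all with negative fold changes. Over all tested genes 5.10% were called and 2.48% were negative calls, and in the average range of the members these shares were 12.0% and 6.45%. The list of family genes written down from general knowledge of the family held 40 of these 41 genes, 39 of them tested, and had the same count of 9 calls. An unadjusted p under 0.05 was found for 15 of the 40, and 14 of those 15 were negative. Such a p was found for 11.4% of all tested genes. In the average range of the members 864 of 3597 genes had one, 398 of them negative. The median log2 fold change of the 40 family genes was -0.23, and 29 of the 40 were negative. These counts are descriptions, since family genes may share reads and the choice of the family followed from the cluster.

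The 4 called genes outside the run lay on 2 chromosome arms. CG9259, CG33509 and CG33511 on 2L were at -3.20, -2.46 and -2.10 per the authors' deposited table, and their adjusted p were 6.6e-24, 0.0021 and 0.0059. The fold change of CG9259 lay between those of CG10514 and CG11892, and its average was 2.89 CPM in the authors' deposited table. CG31380, on 3R but apart from the run, was at -5.32 per the authors' deposited table (implied SE 1.19, adjusted p = 0.00038) with only 0.110 CPM on average. The most abundant family gene, CG2004 at 72.9 CPM, was at -0.05 per the authors' deposited table (implied SE 0.22, adjusted p = 1).

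Genes that make and read ecdysteroids were examined as the background of the family's name. Of 21 listed genes 19 were tested and 0 were called by the authors' likelihood ratio test. An unadjusted p under 0.05 was listed for 9, with 0 of these negative. Over all tested genes 1488, or 11.4%, had one, 647 of them negative. The median log2 fold change of the 19 was 0.32 and 16 were positive, the sign opposite to that of most of the cluster. Over all genes 7311 of the 13080 tested were positive, a weaker lean. Among the marker lists, 8 of 8 germline, 11 of 12 follicle cell and 11 of 11 muscle genes were positive too. An unadjusted p under 0.05 was listed for 0, 0 and 4 of these. The ecdysone synthesis genes dib and phm were at 1.09 and 0.79 per the authors' deposited table, and their adjusted p were 0.067 and 0.070. CG13604, a relative of a silkworm enzyme that removes the phosphate again, was at -0.16 in the authors' deposited table (adjusted p = 1).

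Markers of tissues that can accompany an oocyte were measured beside the cluster, and their part in its fold changes was not tested. Over all tested genes 5.10% were called, 2.48% as negative and 2.61% as positive. Of 19 tested gut markers 18 were called, all positive, with a median log2 fold change of 3.46. That is the side opposite to the 7 negative members and the same as CG11893. Of 9 markers of the Malpighian tubule, the fly's excretory organ, 2 were called, both negative, with a list median of -0.58. These were Uro, which encodes urate oxidase, at -4.38 (adjusted p = 1.3e-33) and the potassium channel gene Irk2 at -1.13 (adjusted p = 0.041) in the authors' deposited table. Fold changes of the 9 were negative in 7 and positive in 2. Average levels of the list ran from 0.130 to 87.7 CPM in the authors' deposited table, with Uro at 1.53 and Irk2 at 0.384 CPM. Its most abundant marker, Nhe3, was at a log2 fold change of 0.07. Of 5 spermatheca markers, which share Hr39 with the ecdysteroid list, 1 was called, the protease gene Send1 at -8.43 in the authors' deposited table (adjusted p = 8.0e-24). The median of the 5 was -0.22, with 3 negative and 2 positive fold changes.

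The fat body list had 2 positive calls of 11, against 5.10% of all tested genes called, with a list median of 0.51. These were Lsp2 at 3.73 and Lsp1beta at 2.71 in the authors' deposited table. The 12 follicle cell and 11 muscle markers had 0 calls by the authors' likelihood ratio test, with medians of 0.17 and 0.53. An unadjusted p under 0.05 was found for 0 and 4 of them. Follicle cell markers were abundant, with a median of 1359 CPM, against 146 CPM for the 8 germline markers. Whether RNA of follicle cells adds to the averages of the cluster was not tested. Summed levels of these lists in each group cannot be given, since the table has no values per group. In bulk samples fewer cells of a type and less RNA per cell cannot be told apart.

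**Figure D4:**
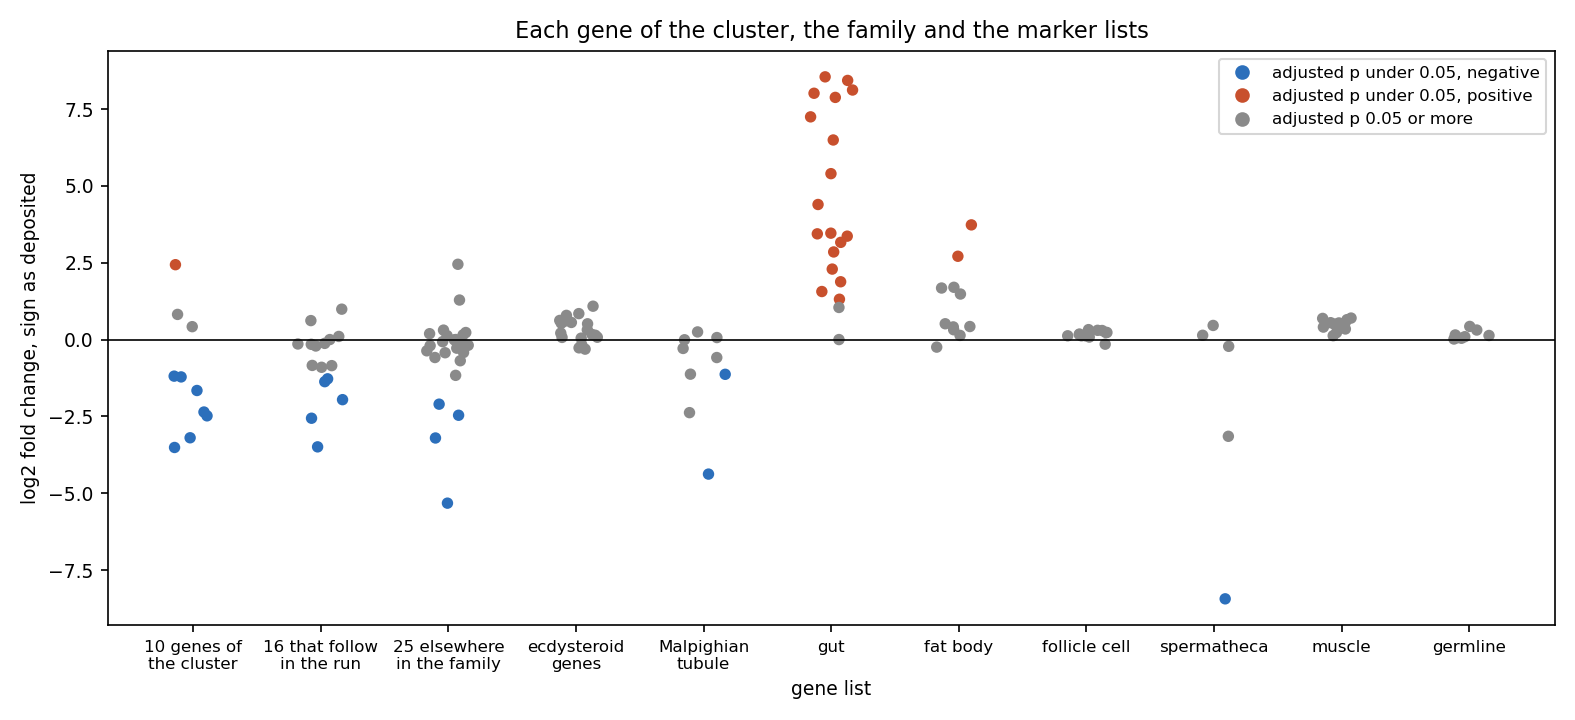
Log2 fold change, with the sign as deposited, of each gene in the cluster, in the 16 family genes that follow it, in the 25 elsewhere in the genome and in the lists of ecdysteroid genes and tissue markers. Each point is a gene, spread sideways for legibility, and colours show the call at adjusted p under 0.05. Negative calls appear in the 3 family groups and in the Malpighian tubule and spermatheca lists, while the 18 gut calls are all positive.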

How the data were processed

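RNA was sequenced from 3 InR-DN and 3 GFP control pools of stage 14 oocytes. Per the submitters' processing notes, FastQC, Bowtie and TopHat were used. Their versions are not stated, and the genome build and read counter are likewise not given in the sources used here. Per the labels the RNA was polyA selected, while the protocol names a stranded total RNA kit. The authors deposited 1 table, titled glmLRT after a function of edgeR. Per the file headers its columns are log2 fold change, log2 CPM, likelihood ratio (a score), p-value and false discovery rate. The depth of each sample is unknown, so no gene was tested anew, and the planned count test was replaced by the authors' deposited p-values. These differed from the chi-square tail of the score by at most 6.4e-15, and the deposited adjusted p from a Benjamini-Hochberg adjustment over 14862 genes by at most 3.6e-15.

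The members and lists were chosen with earlier results of these data known. Named in full are the 10 members. Family, flanking and ecdysteroid genes were named where called. Called markers of the Malpighian tubule, spermatheca and fat body were named, but the 18 called gut markers were not. Others (InR, RIOK2, CG31098, CHKov1, CHKov2, CG2004, CG31099, CG13604, dib, phm, Nhe3, the germline markers and clade Dro5) were named after their values were seen. With 1 comparison there is no pattern over samples by which to name similar genes. Family and order came from the RefSeq gene table (Release 6 plus ISO1 MT), exon lengths and overlaps from Ensembl's BDGP6 annotation, and coordinates are left out since the build of the files is unknown. The listed genes EcI and Hr3 were not matched. The adjustment and the implied SE were tested on simulated Poisson counts, mostly high, without replicates or extra spread between samples. That setting does not cover genes at the low averages of the cluster, so it cannot tell whether the intervals hold there. Alternatives were the genes entering the adjustment, a threshold of 0.01, Bonferroni adjustment and centring on the median. The tools were scipy 1.17.1, numpy 2.4.6 and pandas 2.3.3 under Python 3.11.15, with matplotlib 3.10.9 for plots.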

Additional observations from a re-analysis of the deposited data

How the results depend on the processing

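Adjusted over genes with a likelihood ratio above 0, the counts of called members, other family genes, flanking genes and ecdysteroid genes stayed as reported. Adjusted over genes of average log2 CPM 0 or more, 3 members were called, all negative (CG10513, CG10514 and CG11892), because the 7 others fall below that average and leave the test. In the same setting 2 other family genes (CG9259 and CG10550) and 0 flanking genes were called, against 3.98% of the genes kept. Of the 41 other family genes 24 fall below that average and leave the test. The flanking genes called in the main setting, CG31097 and CG31288, leave it as well. At an adjusted p under 0.01, 5 members were called, 4 of them negative, with 8 other family genes and 1 flanking gene. With Bonferroni adjustment over all genes, 4 members were called, all 4 negative (CG11878, CG10513, CG10514 and CG11892), with 2 other family genes and 0 flanking genes. The calls of CG11889, CG11891 and CG13658 were lost at 0.01 and under Bonferroni adjustment, and that of CG11893 under Bonferroni adjustment. Ecdysteroid genes had 0 calls in these 4 settings. Fold changes minus the median of all tested genes, 0.03, kept their sign in all 10 members. Family genes named by clade in the gene table, and CG11889 with CG11891 as 1 locus, gave 9 and 7 calls, both chosen after seeing the data. Searches of protein sequence, promoter and motif were not run, as no sequences were used here. Fits without 1 replicate, by another count tool, with another normalization or without a count filter were not run, as there were no counts. No paired analysis was possible because values per sample were not part of the table. A call carried by 1 sample could not be recognised for the same reason, and low averages limit what can be detected.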
